A study of Mus musculus with 2 samples.

Results

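The tricarboxylic acid cycle enzymes described here were Cs, Idh3a, Idh3b, Idh3g, Ogdh, Sucla2, Suclg1, Fh1 and Mdh2. They were taken by symbol from the gene list of a spatial gene expression experiment on the mouse heart. All 9 were listed, each under 1 gene ID, among 19465 genes. A formalin-fixed, paraffin-embedded heart section of 5 μm from each of 2 mice was hybridised with gene probes on the Visium CytAssist platform. The probe products were counted as unique molecular identifiers (UMIs) in small spots, each of which can hold several cells or parts of cells. The control mouse carried α-MHC-MerCreMer+/−, a tamoxifen-inducible Cre recombinase driven by the α-MHC promoter, which is active in cardiomyocytes. The TOP2B transgenic mouse carried the same Cre and hTOP2B LSL/−, a human TOP2B cDNA at Rosa26 that the CAG promoter expresses once Cre has removed a STOP cassette. Both mice received 80 mg/kg of tamoxifen in a single intraperitoneal injection, a regimen that the methods describe for mice aged 6 weeks. The day of harvest of these sections was not given in the sources used here. The comparison asked how the cycle enzymes of the heart differed once the transgene had been induced.

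The tricarboxylic acid cycle runs in the mitochondrial matrix. It oxidises the acetyl groups that come from fatty acids, pyruvate and ketone bodies, and it passes their electrons to the respiratory chain as NADH and FADH2. Cardiomyocytes are packed with mitochondria and depend on this route for most of their ATP. The enzymes are encoded in the nucleus and imported, and several of them, among them isocitrate dehydrogenase and 2-oxoglutarate dehydrogenase, are assemblies of different subunits.

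The control section held 1256 spots over tissue with 14376300 UMIs, and the transgenic section held 924 spots with 12953389 UMIs. The median depth was 11336 UMIs per spot in the control and 14531 in the transgenic section. Each group was thus 1 section of 1 mouse, so no test between the groups was possible. Spots of 1 section are not replicates, and every interval given here is a 95% interval that covers counting error only. Differences between the mice themselves cannot be told apart from differences between the genotypes. Levels are given as UMIs per 1000000 UMIs of the section (CPM), and because each gene was read by its own probes, levels were not compared between genes. Cardiomyocyte markers made up 5.12% of the control and 4.76% of the transgenic UMIs, so both sections were heart muscle by these markers. Of the 9 markers in this sum 6 had a log2 ratio below 0 and 3 were at least 1.5-fold lower, namely Myl3 (−1.07), Ldb3 (−1.01) and Ttn (−0.60), while the abundant Tnnt2 stood at 0.17. Summed erythroid markers made up 0.215% of control and 2.04% of transgenic UMIs, summed fibroblast markers 0.126% and 0.188%, and summed macrophage markers 0.0298% and 0.0577%. The median macrophage gene had a log2 ratio of 0.91. Over all 15236 genes with at least 20 UMIs the median was 0.20 and the 90th percentile 1.20. In the 50% of spots of each section poorest in erythroid markers, the summed log2 ratio of the 9 members was −0.75, against −0.74 over all spots. Beyond that comparison, the part of erythroid, fibroblast and macrophage RNA in the members' difference was not tested in the section totals. Mouse Top2b was measured at 106 CPM in control and at 102 CPM in transgenic tissue (log2 ratio −0.07, −0.17 to 0.04). The transgene is a human cDNA, and whether any probe used here reads it is not known. The Top2b value therefore does not check the genotype label.

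Promoter sequences of 4 members are shown first. Ogdh was among the more strongly lowered members, Cs and Mdh2 were lowered less, and Idh3b differed least. The 3 most lowered members, Idh3a, Sucla2 and Suclg1, are not among those printed. Each window runs from 250 bases before to 50 bases after an annotated start (RefSeq, GRCm38.p6) and is written 5′ to 3′ on the gene's strand, with motif matches in capitals. The Cs window is chr10:128337477-128337776 (+), the Ogdh window chr11:6291347-6291646 (+), the Mdh2 window chr5:135778399-135778698 (+) and the Idh3b window chr2:130284402-130284701 (−).
Cs: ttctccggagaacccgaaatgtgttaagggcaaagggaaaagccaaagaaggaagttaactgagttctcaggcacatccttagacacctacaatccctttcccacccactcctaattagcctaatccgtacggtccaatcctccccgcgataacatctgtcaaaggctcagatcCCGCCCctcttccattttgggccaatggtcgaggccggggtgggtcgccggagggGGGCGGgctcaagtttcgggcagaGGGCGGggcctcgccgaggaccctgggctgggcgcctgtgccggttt
Ogdh: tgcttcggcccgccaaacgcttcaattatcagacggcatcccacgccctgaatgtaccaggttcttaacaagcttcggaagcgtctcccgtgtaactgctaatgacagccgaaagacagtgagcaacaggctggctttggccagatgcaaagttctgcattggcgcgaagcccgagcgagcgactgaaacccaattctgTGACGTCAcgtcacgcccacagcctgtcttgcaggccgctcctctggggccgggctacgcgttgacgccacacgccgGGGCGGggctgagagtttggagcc
Mdh2: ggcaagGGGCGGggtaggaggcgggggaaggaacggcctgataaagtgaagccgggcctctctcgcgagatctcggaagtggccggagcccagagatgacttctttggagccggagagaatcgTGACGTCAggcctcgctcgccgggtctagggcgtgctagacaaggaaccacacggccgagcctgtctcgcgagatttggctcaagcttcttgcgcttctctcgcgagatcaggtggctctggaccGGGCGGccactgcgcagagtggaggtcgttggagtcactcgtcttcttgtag
Idh3b: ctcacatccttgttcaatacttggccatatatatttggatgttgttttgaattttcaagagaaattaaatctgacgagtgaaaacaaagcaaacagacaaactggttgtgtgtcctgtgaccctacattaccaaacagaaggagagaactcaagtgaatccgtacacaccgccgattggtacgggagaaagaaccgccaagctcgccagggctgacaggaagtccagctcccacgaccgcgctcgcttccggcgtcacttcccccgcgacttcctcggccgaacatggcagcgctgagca
The capitals mark GGGCGG, the GC box, in Cs, Ogdh and Mdh2, and TGACGTCA, the CREB palindrome, in Ogdh and Mdh2, each searched on both strands.

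RefSeq promoter windows were found for 8 of the 9 members, 13 windows in all, since Ogdh had 6. The member without a window was Idh3a, the most strongly lowered gene of the set. TGACGTCA stood in 4 of these windows, 3 of Ogdh and that of Mdh2, against 1.79% of the 32851 promoter windows of the genome table. The Mdh2 match began 127 bases before the start, and that of the printed Ogdh window 51 bases before it. GGGCGG stood in 8 of the windows, those of Cs, Ogdh, Sucla2, Fh1 and Mdh2, against 35.7% of all windows. The NRF1 core CGCATGCG was found in 2 later Ogdh windows and in 1.87% of all windows. The estrogen-related receptor element TNAAGGTCA, the ETS element CCGGAAGT and the MEF2 core TAAAAATA were found in 0 of the 13 windows, against 1.28%, 3.89% and 2.72% of all windows. The 3 Ogdh windows that hold TGACGTCA overlap each other, and so do the 2 later ones with CGCATGCG. The remaining Ogdh window overlaps no other, so the 6 windows do not stand for 6 separate promoters. The TGACGTCA match of the 3 Ogdh windows is the same stretch of bases. The same holds for the GGGCGG match of those 3 windows and for the CGCATGCG match of the 2 later ones. Counted by gene, TGACGTCA was found in 2 members, GGGCGG in 5 and CGCATGCG in 1. No share by gene over the genome was computed beside these counts. The member windows held 49.3 to 72.3% G and C, against a median of 52.7% over all windows. The part of this base content in the matches was not tested. A match or its absence describes these letters only.

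Every one of the 9 enzymes was lower in the transgenic section. Together they gave 110732 UMIs in the control and 59803 in the transgenic section, which was 0.770% of all control UMIs (0.766 to 0.775) and 0.462% of all transgenic UMIs (0.458 to 0.465). The summed level was 40.1% lower (log2 ratio of CPM, transgenic over control, −0.74, −0.75 to −0.72). The median member had a log2 ratio of −0.81, and the members ran from −1.17 for Idh3a to −0.16 for Idh3b. For all 15236 genes with at least 20 UMIs over both sections the median was 0.20, so the median member lay 1.01 log2 units below the median gene.

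A log2 ratio below 0 was found for 9 of the 9 members, against 36.8% of the 15236 genes and 39.4% of the 4393 genes with at least 1000 UMIs. Idh3b and its 8 fellow members all exceeded 1000 UMIs over both sections. The counting interval lay wholly below 0 for 9 of 9 members, against 32.0% of the 4393 abundant genes. A level at least 1.5-fold lower was found for 6 of 9 members, all but Idh3b, Idh3g and Mdh2, against 12.9% of the 15236 genes and 16.2% of the abundant ones. In bulk spots, fewer cardiomyocytes and less of these RNAs per cardiomyocyte cannot be told apart.

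**Figure D1:**
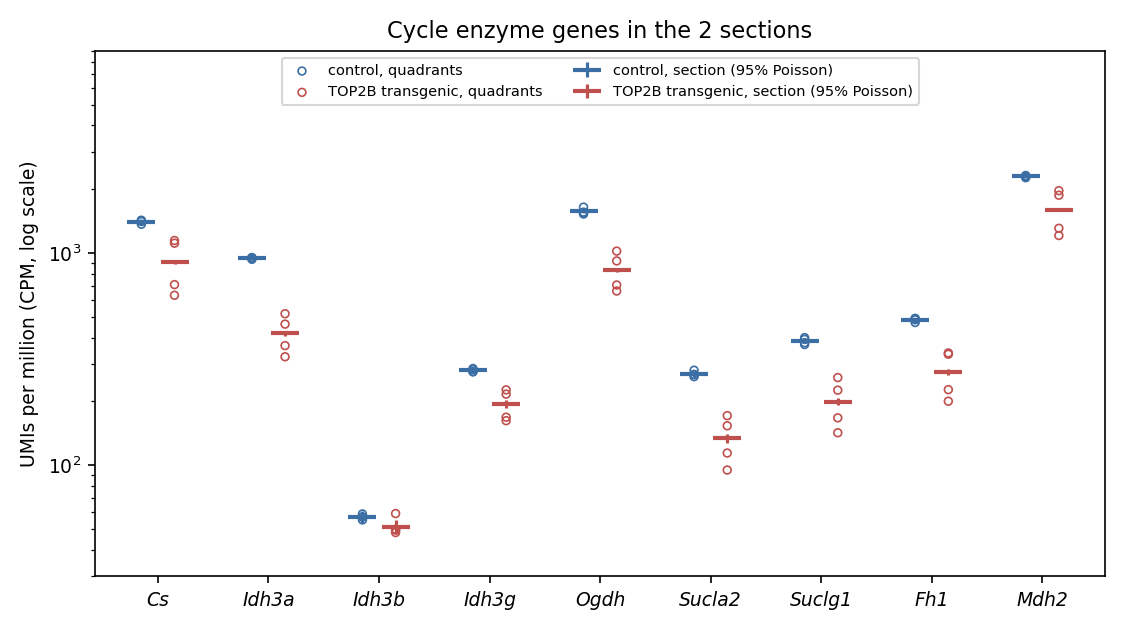
Level of each of the 9 enzyme genes in CPM (log scale), with a horizontal bar for the whole section, a vertical line for its 95% Poisson interval, and open circles for the 4 quadrants of that section (control blue, transgenic red). For 8 of the 9 genes every transgenic quadrant lies below every control quadrant, and only Idh3b overlaps.

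Cs encodes citrate synthase, which joins acetyl-CoA to oxaloacetate and so opens the cycle. It gave 20218 UMIs in the control, or 1406 CPM (1387 to 1426), and 11749 UMIs in the transgenic section, or 907 CPM (891 to 924). This was 35.5% lower (log2 ratio −0.63, −0.67 to −0.60). The difference at this entry step was smaller than for Idh3a, Ogdh, Sucla2, Suclg1 and Fh1 and larger than for Idh3g, Idh3b and Mdh2.

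Isocitrate is oxidised to 2-oxoglutarate by the NAD-dependent isocitrate dehydrogenase, whose catalytic subunit is encoded by Idh3a and whose other subunits are encoded by Idh3b and Idh3g. Idh3a gave 13610 UMIs in the control, or 947 CPM (931 to 963), and 5439 in the transgenic section, or 420 CPM (409 to 431). It was the most strongly lowered of the 9 genes, 55.6% lower (log2 ratio −1.17, −1.22 to −1.13). Idh3g gave 4026 UMIs, or 280 CPM (271 to 289), in the control and 2518 UMIs, or 194 CPM (187 to 202), in the transgenic section, 30.6% lower (log2 ratio −0.53, −0.60 to −0.45). Idh3b gave only 820 and 663 UMIs. Its level was 57.0 CPM (53.2 to 61.1) in the control and 51.2 CPM (47.4 to 55.2) in the transgenic section, 10.3% lower, and the interval of its log2 ratio, −0.31 to −0.01, nearly reached 0.

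The 3 subunit genes of this one enzyme therefore held the lowest and the highest ratio of the whole set. Idh3a provided 73.7% of the UMIs of the 3 subunits in the control (73.1 to 74.4, exact Clopper-Pearson interval) and 63.1% in the transgenic section (62.1 to 64.1). The share of Idh3b was 4.44% (4.15 to 4.75) and 7.69% (7.14 to 8.27). That of Idh3g was 21.8% (21.2 to 22.4) and 29.2% (28.3 to 30.2). Such shares depend on the probes as well, so only their difference between the sections can be read. Idh2, which encodes the NADP-dependent mitochondrial isocitrate dehydrogenase, had a log2 ratio of −0.33 (−0.36 to −0.31), and the Idh3 subunits made up 38.5% of Idh3 and Idh2 UMIs in the control (38.1 to 39.0) and 29.1% in the transgenic section (28.5 to 29.6).

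Ogdh encodes the decarboxylating E1 subunit of the 2-oxoglutarate dehydrogenase complex, which makes succinyl-CoA. It gave 22626 UMIs in the control, or 1574 CPM (1553 to 1594), and 10791 in the transgenic section, or 833 CPM (817 to 849). The level was 47.1% lower, with a log2 ratio of −0.92. The remaining subunits of the complex, which were not in the set, were lowered further: Dlst, the E2 core, had a log2 ratio of −1.61 (−1.69 to −1.53), the lowest of the cycle genes given here, and Dld, the E3 subunit shared with pyruvate dehydrogenase, −1.15 (−1.20 to −1.09). Ogdh thus made up 60.5% of the UMIs of the 3 genes in the control and 66.7% in the transgenic section (66.0 to 67.4).

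Succinyl-CoA ligase turns succinyl-CoA into succinate and yields a nucleoside triphosphate. Suclg1 encodes its common alpha subunit, Sucla2 the ADP-forming beta subunit, and Suclg2 the GDP-forming one. Sucla2 gave 3871 UMIs in the control, or 269 CPM (261 to 278), and 1737 in the transgenic section, or 134 CPM (128 to 141), 50.2% lower (log2 ratio −1.01, −1.09 to −0.92). Suclg1 gave 5540 UMIs, or 385 CPM (375 to 396), and 2588 UMIs, or 200 CPM (192 to 208), 48.2% lower (log2 ratio −0.95, −1.02 to −0.88). Unlike the subunits of isocitrate dehydrogenase, those of this ligase were lowered by similar factors. Sucla2 supplied 47.2% of the beta subunit UMIs in the control (46.2 to 48.3) and 47.2% in the transgenic section (45.6 to 48.9), and Suclg1 supplied 40.3% (39.5 to 41.2) and 41.3% (40.1 to 42.5) of all ligase UMIs.

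Fh1 encodes fumarase, which hydrates fumarate to malate. It gave 6969 UMIs in the control, or 485 CPM (473 to 496), and 3576 in the transgenic section, or 276 CPM (267 to 285), 43.1% lower (log2 ratio −0.81, −0.87 to −0.75). Mdh2 encodes mitochondrial malate dehydrogenase, which closes the cycle by regenerating oxaloacetate. It gave 33052 UMIs, or 2299 CPM (2274 to 2324), and 20742 UMIs, or 1601 CPM (1580 to 1623), 30.4% lower (log2 ratio −0.52, −0.55 to −0.50). Mdh1, the cytosolic enzyme of the malate-aspartate shuttle, had a log2 ratio of −1.34 (−1.36 to −1.31), so Mdh2 made up 35.4% of the UMIs of both genes in the control (35.1 to 35.7) and 49.1% in the transgenic section (48.6 to 49.6).

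From the most to the least lowered, the order was Idh3a, Sucla2, Suclg1, Ogdh, Fh1, Cs, Idh3g, Mdh2 and Idh3b. Of the 36 pairs of members, 32 differed in log2 ratio by more than counting error. No such share was computed for pairs of other genes, and at these counts small differences exceed counting error. The pairs that did not were Sucla2 and Suclg1 (difference −0.06, −0.16 to 0.05), Ogdh and Suclg1 (0.03, −0.05 to 0.10), Ogdh and Sucla2 (0.09, −0.00015 to 0.18) and Idh3g and Mdh2 (−0.0049, −0.08 to 0.07). The log2 ratios had an SD of 0.31 over the 9 genes and a range of 1.02. For the 4393 genes with at least 1000 UMIs the 10th and 90th percentiles were −0.87 and 1.11. These lie further apart than the highest and lowest member, so the spread is not particular to the cycle. Along the cycle, Cs and Mdh2, which use and regenerate oxaloacetate, stood at both ends of the set. They were lowered less than Ogdh, Sucla2, Suclg1 and Fh1 between them. Of the Idh3 subunits, also between them, only Idh3a was lowered more than both ends. Idh3b was lowered least of all, and Idh3g less than Cs and about as much as Mdh2. No trend from the ends to the middle of the cycle therefore held for the whole set.

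**Figure D2:**
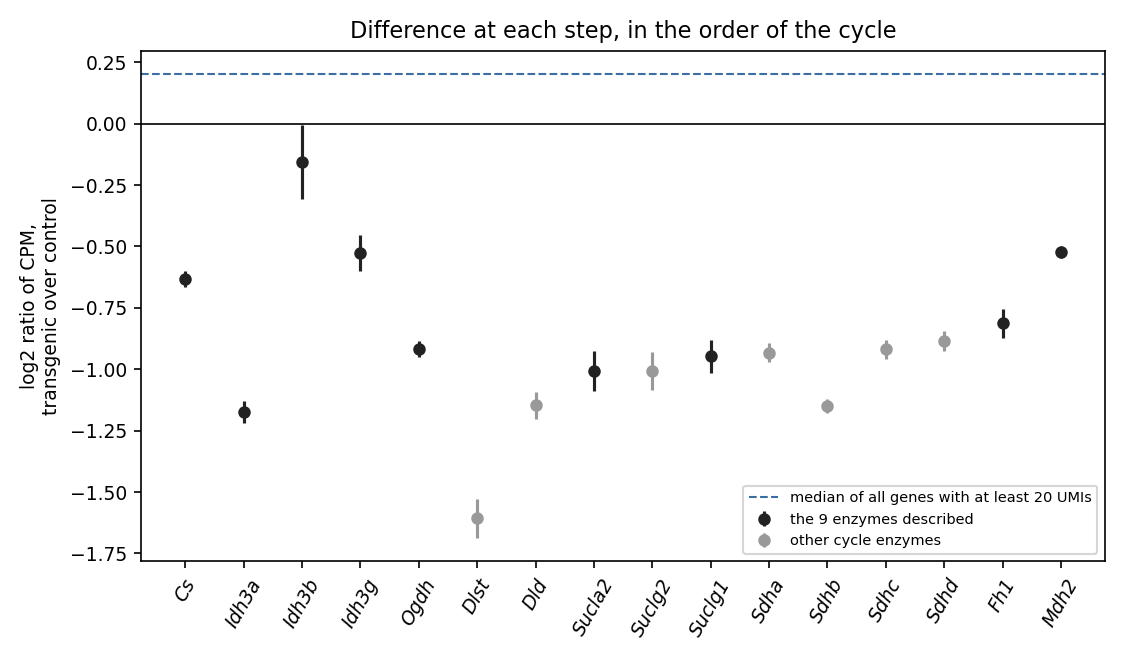
Log2 ratio of CPM, transgenic over control, for the 9 enzymes (black) and 7 other cycle enzyme genes (grey) in the order of the cycle, with 95% counting intervals as vertical lines, 0 as a solid line and the median of all genes, 0.20, as a dashed line. Every gene lies below 0, from −1.61 for Dlst to −0.16 for Idh3b.

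As a group, other cycle genes were lower still, though the ranges of single genes overlapped with those of the members. All 7 of those analysed had a log2 ratio below 0, all 7 were at least 1.5-fold lower, and their median was −1.01. Besides Dlst and Dld, these were the ligase subunit Suclg2 (−1.01) and the 4 succinate dehydrogenase genes Sdha (−0.93), Sdhb (−1.15), Sdhc (−0.92) and Sdhd (−0.88). The summed log2 ratio of the 9 members lay above that of these genes by 0.31 (0.29 to 0.33).

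Enzymes that run the same reactions elsewhere or along other routes were mixed. Of 6 such genes 3 were below 0, with a median of −0.03, from Mdh1 at −1.34 to the cytosolic citrate cleavage enzyme Acly at 0.84 (0.64 to 1.03). The genes that feed pyruvate into the cycle were lower in 5 of 5 cases, with a median of −1.22, from the pyruvate carrier subunit Mpc2 at −1.49 to the E1 subunit Pdha1 at −0.51. Of 13 genes for side entry and exchange of intermediates, 9 were below 0, with a median of −0.77, from the aspartate-glutamate carrier Slc25a13 at −1.90 to the citrate carrier Slc25a1 at 1.64.

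Beyond the cycle, the 7 core subunit genes of complex I were all at least 1.5-fold lower, with a median of −1.06. Of 11 fatty acid oxidation genes all were below 0 and 8 were at least 1.5-fold lower, with a median of −1.01, from Hadh at −1.69 to Acadl at −0.07. Of 12 genes of mitochondrial import and housekeeping all were below 0, 7 by at least 1.5-fold, with a median of −0.69, from the chaperonin gene Hspd1 at −1.49 to the import receptor gene Tomm20 at −0.04. In summed level the members lay 0.20 (0.18 to 0.22) above complex I, and 0.06 (0.04 to 0.08) below fatty acid oxidation. By the median gene the order against fatty acid oxidation was reversed, with the members at −0.81 and fatty acid oxidation at −1.01. The 2 groups are therefore not ranked against each other. Regulators of mitochondrial genes had a median of −0.44, from the fatty acid receptor gene Ppara at −1.66 to Nrf1 at 0.14 (−0.15 to 0.43). Of these 8 genes 7 were below 0, against 36.8% of the 15236 genes, and for 6 the interval lay wholly below 0. Gabpa, at −0.02 (−0.40 to 0.36), was not separable from 0.

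Between the quadrants of the control section the members were nearly even. The summed level ran from 7614 to 7823 CPM over the 4 quadrants made by splitting the section at its median array row and column. In the transgenic section it ran from 3480 CPM in the upper right quadrant to 5698 CPM in the lower left one. All 4 transgenic quadrants lay below all 4 control quadrants for 8 of 9 members, against 27.0% of the 4393 abundant genes. The exception was Idh3b, at 55.3 to 58.9 CPM in control and 48.2 to 59.2 CPM in transgenic quadrants. Mdh2 showed the pattern of the others, at 2269 to 2324 CPM and 1211 to 1970 CPM. Over all spots, the upper right quadrant was the lowest of the transgenic quadrants for all 9 members. Cardiomyocyte markers were also lowest there, at 4.24% of UMIs against 4.67 to 5.21% in the other transgenic quadrants.

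That quadrant also held most of a group of spots with little heart muscle RNA. Among spots with at least 1000 UMIs, 39 of 921 transgenic spots had cardiomyocyte markers under 2% of their UMIs, and 38 of these lay in the upper right quadrant. Erythroid markers made up 77.4% of their UMIs, and the 9 members stood at 471 CPM. In the control 3 of 1249 spots were under 2%. Without these spots the summed log2 ratio was −0.72, and the upper right quadrant stood at 3625 CPM, still the lowest for the sum. It was then no longer the lowest for Idh3g, at 169 CPM against 168 CPM in the lower right quadrant. Nor was it for Idh3b, at 50.5 CPM against 49.4 CPM in the lower left quadrant.

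**Figure D3:**
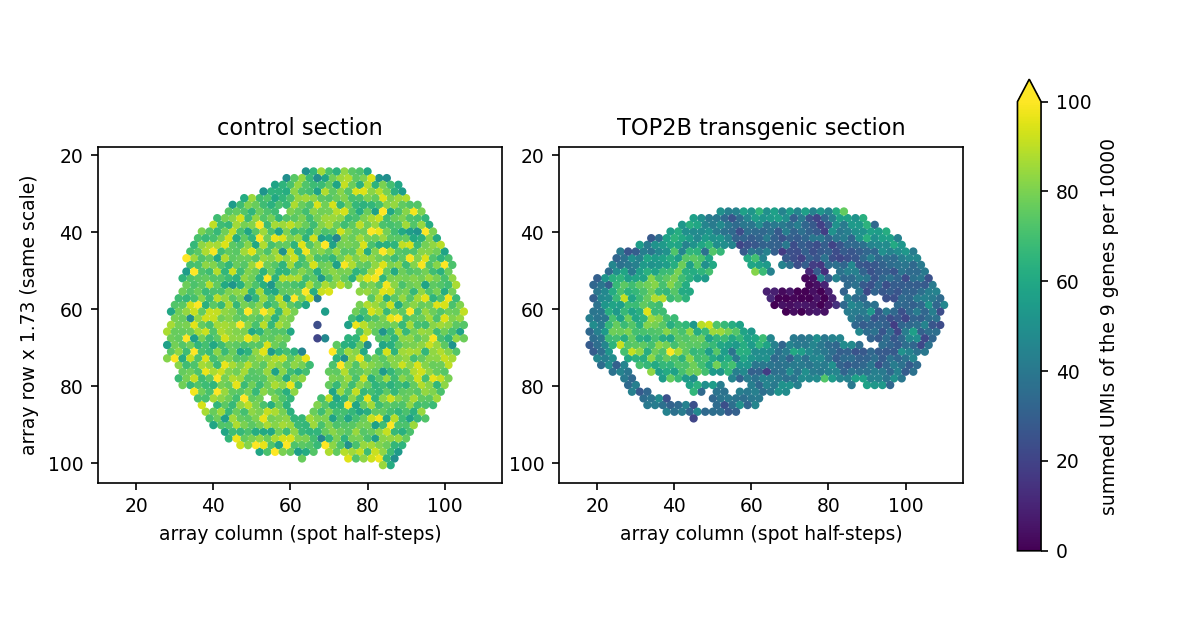
Summed UMIs of the 9 genes per 10000 UMIs in each spot with at least 1000 UMIs, placed by array column and row for the control (1249 spots) and the transgenic section (921 spots) on the same colour scale from 0 to 100. Control spots are of even colour, while transgenic spots are brightest on the left and darkest in a compact group of erythroid-rich spots right of the centre.

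Spot by spot, the sum of the members had a median of 76.7 UMIs per 10000 in the control, and its 10th and 90th percentiles were 63.8 and 91.5. In the 882 transgenic spots with at least 2% cardiomyocyte markers the median was 43.4, and the percentiles were 28.6 and 71.1. The variation of the sum beyond counting noise was a coefficient of variation of 9.34% over 1246 control spots and 32.0% over these 882 transgenic spots. For single members it ran from 8.36% (Idh3b) to 20.2% (Suclg1) over 1249 control spots. Over 921 transgenic spots it ran from 0% (Idh3b) to 39.2% (Sucla2). Of all 921 transgenic spots, 753, or 81.8%, lay below the 10th percentile of the control, and 44 reached the control median. The transgenic section thus held spots at control levels beside spots far below them.

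The unevenness was shared by most members, while for Idh3b it was not seen. Moran's I, which measures how alike neighbouring spots are and is near 0 where there is no pattern, stood between −0.02 and 0.06 for the 9 genes in the control. In the transgenic section it was 0.62 for Mdh2, 0.60 for Cs, 0.52 for Ogdh, 0.41 for Idh3a, 0.38 for Fh1, 0.32 for Suclg1, 0.20 for Sucla2 and 0.19 for Idh3g. For Idh3b it was 0.03, but with 663 UMIs over 924 spots counting noise could hide a pattern. Genes with few UMIs per spot have a lower Moran's I from counting noise alone, so these values do not rank the genes.

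To compare detection at equal depth, each spot was reduced at random to 8134 UMIs, and shallower spots were dropped (140 of the control, 78 of the transgenic section). At least 1 UMI of Sucla2 was then found in 88.1% of control and 63.7% of transgenic spots. For Suclg1 the shares were 94.8% and 79.0%, for Idh3g 90.7% and 78.4%, and for Fh1 97.8% and 86.3%. For Idh3b they were 39.3% and 35.1%. No interval is given for these shares, since spots of 1 section are not replicates. Before thinning, Sucla2 was found in 93.0% and 77.7% of spots, and Idh3b in 47.8% and 49.4%.

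The difference between the sections was larger in spots with a lower share of cardiomyocyte marker UMIs. That share includes Myl3, Ldb3 and Ttn, which were themselves lower in the transgenic section, so the ordering of the spots is not independent of the difference it describes. The spots of each section with at least 1000 UMIs were ordered by their share of cardiomyocyte marker UMIs and split into 4 equal groups. From the lowest to the highest group the summed members stood at 7632, 7918, 7775 and 7485 CPM in the control, which was nearly flat. In the transgenic section they stood at 3075, 4127, 5109 and 5998 CPM. The log2 ratio between the sections therefore went from −1.31 (−1.35 to −1.28) in the lowest group to −0.94, −0.61 and −0.32 (−0.35 to −0.29) in the highest group. Cardiomyocyte markers made up 3.52% of transgenic and 4.61% of control UMIs in the lowest group and 5.77% and 5.71% in the highest. Erythroid markers moved along with this, at 6.05% of transgenic UMIs in the lowest group and 0.730% in the highest, and fibroblast markers went from 0.257% to 0.138%. The part of the fibroblast RNA in the result was not tested. Without the spots under 2% cardiomyocyte markers, where erythroid markers in the lowest transgenic group came to 1.60%, the log2 ratios were −1.23, −0.91, −0.57 and −0.32. With the spots ordered by the 6 remaining markers alone they were −1.28, −0.89, −0.62 and −0.38. These 6 were picked by their ratio in the same data. Actn2 (−0.42) and Tnnc1 (−0.21) among them were lower too, while Tnnt2, Mybpc3 and Csrp3 were above 0 and Tpm1 was near 0. This order of the spots is therefore not independent of the difference either.

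**Figure D4:**
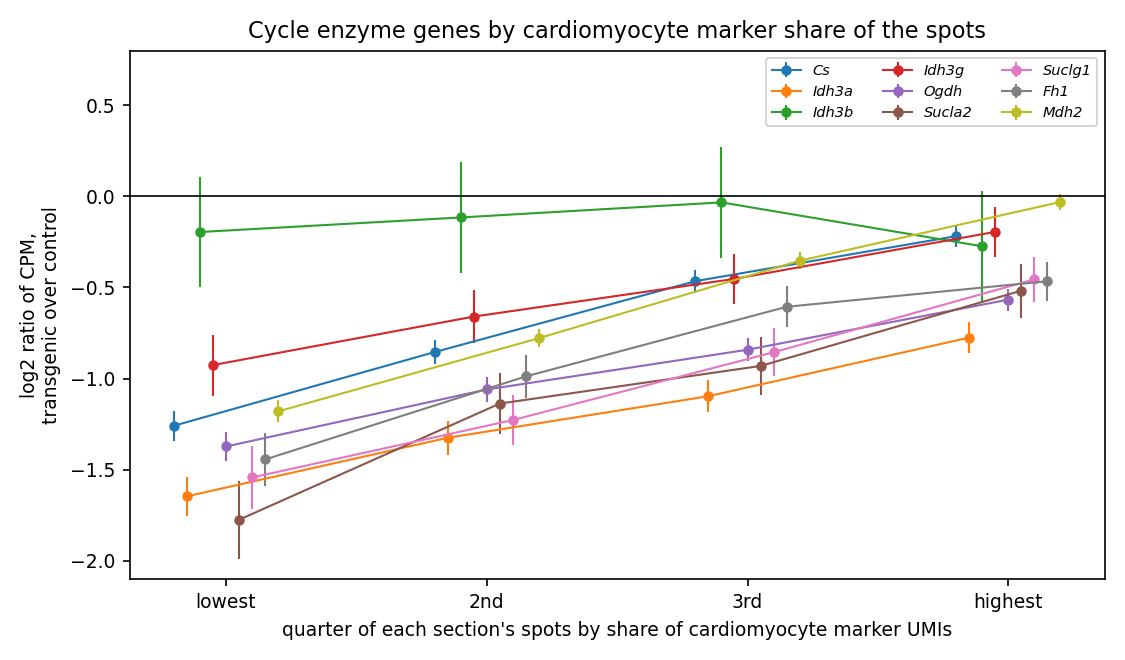
Log2 ratio of CPM, transgenic over control, for each of the 9 genes in 4 equal groups of spots ordered by their share of cardiomyocyte marker UMIs, with 95% counting intervals as vertical lines. For 8 genes the difference is smaller in the group richest in cardiomyocyte markers, where Mdh2 comes to −0.03 and Idh3a stays at −0.78, while Idh3b shows no trend beyond its intervals.

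In the spots richest in cardiomyocyte markers the members differed among themselves. Mdh2 stood at 2158 CPM in control spots and at 2113 CPM in transgenic ones, a log2 ratio of −0.03 (−0.08 to 0.02), or −0.10 (−0.15 to −0.05) when the 6 markers without Myl3, Ldb3 and Ttn ordered the spots. Cs had a ratio of −0.22 (−0.28 to −0.16) and Idh3g −0.19 (−0.33 to −0.06). Idh3a was still at 902 CPM against 527 CPM, a ratio of −0.78 (−0.86 to −0.69). Ogdh was at −0.57, Sucla2 at −0.52, Fh1 at −0.47 and Suclg1 at −0.46. In the lowest group Sucla2 had the lowest ratio, −1.78 (−1.99 to −1.56), followed by Idh3a at −1.65 and Suclg1 at −1.54. Idh3b was at −0.20 (−0.50 to 0.11) in the lowest and −0.27 (−0.58 to 0.03) in the highest group. When only the 50% of spots richest in cardiomyocyte markers were used in each section, the summed ratio was −0.46 instead of −0.74, Cs was at −0.34 and Mdh2 at −0.19.

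Transgenic spots were also ordered by the share of Myh7, a fetal myosin heavy chain gene in mice, among the UMIs of Myh7 and its adult counterpart Myh6. The median share in 4 equal groups (222, 221, 221 and 221 spots, not all 921) was 43.6%, 53.1%, 61.7% and 68.3%. This share also rises where Myh6 is lower, so the order of the spots is not by Myh7 alone. Over 882 transgenic spots the members had a Pearson r of 0.70 with Myh6 and 0.16 with Myh7. The summed members stood at 5232, 5167, 4304 and 3889 CPM from the lowest to the highest Myh7 share. Other markers moved along these groups too, with cardiomyocyte markers at 4.90%, 5.05%, 4.80% and 4.48% of UMIs, erythroid markers from 0.794% to 1.52% and fibroblast markers from 0.160% to 0.229%, and their part in the result was not tested. Mdh2 went from 1830 to 1312 CPM and Cs from 1067 to 731 CPM between the outer groups, while Idh3b was at 46.3 and 51.0 CPM. The tissue edge made little difference to the summed log2 ratio, which was −0.75 in edge spots and −0.73 in spots with all 6 neighbours on tissue. Single members moved in both directions. Cs was at −0.78 (−0.86 to −0.71) in edge spots and −0.58 (−0.62 to −0.54) in the others. Suclg1 was at −0.75 (−0.90 to −0.59) and −0.97 (−1.05 to −0.89).

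**Figure D5:**
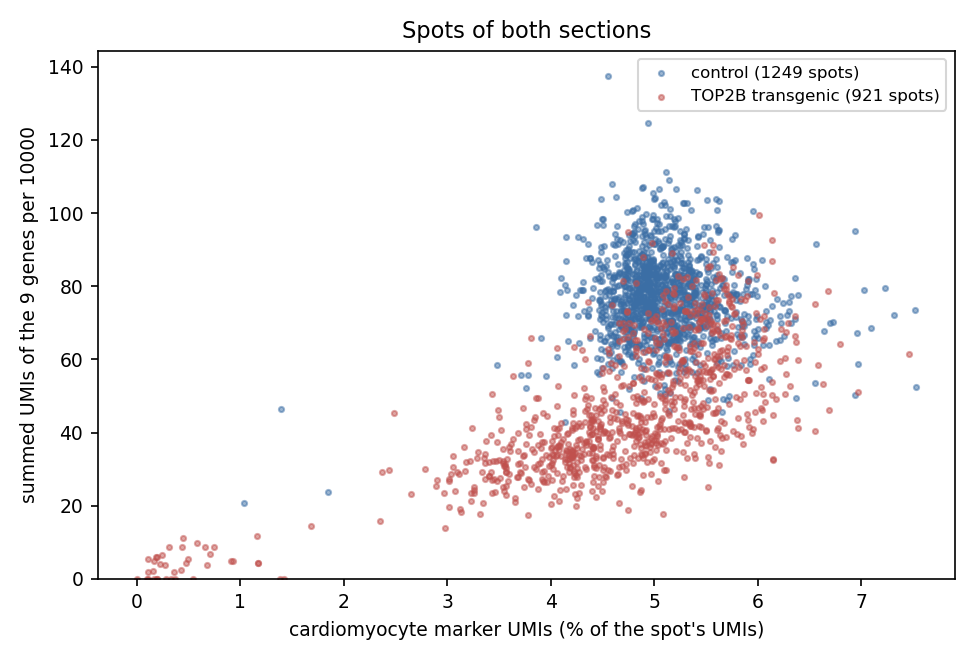
Summed UMIs of the 9 genes per 10000 UMIs (vertical) against the cardiomyocyte marker share in percent of UMIs (horizontal) for each spot, with control spots in blue and transgenic spots in red. Control spots form a compact cloud around a median of 76.7, whereas transgenic spots stretch down to the erythroid-rich spots under 2% and reach the control cloud at the upper right.

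Across the 882 transgenic spots with at least 2% cardiomyocyte markers, the summed members went along with other mitochondrial genes. The Pearson r of log2(1 + UMIs per 10000), which is a description over spots that share a library and neighbourhood, was 0.83 with fatty acid oxidation genes, 0.82 with complex I and 0.79 with the other cycle enzymes. It was 0.66 with cardiomyocyte markers, 0.70 with Myh6, 0.16 with Myh7, −0.47 with fibroblast markers, −0.59 with Nppa and −0.09 with depth. Over all 921 spots r was 0.85 with cardiomyocyte markers, 0.64 with Myh7, 0.11 with Nppa, 0.46 with fibroblast markers and −0.61 with erythroid markers. The 39 erythroid-rich spots thus weighed on these values, and the sign for fibroblast markers and Nppa depended on leaving them out. Without those spots r with erythroid markers was −0.04. In 1246 control spots r was 0.20 with the other cycle enzymes and −0.06 with cardiomyocyte markers. Between single members the median r of the 36 pairs was 0.25 in the 882 transgenic spots, from −0.05 for Idh3b and Suclg1 to 0.55 for Cs and Mdh2, and 0.03 in the control.

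The genes outside the set whose spot pattern was most like that of the summed members were sought among 1045 genes with at least 2000 UMIs. Over all 921 transgenic spots the 10 highest were the ADP/ATP carrier gene Slc25a4 (r = 0.89), Mb, Fabp3, Cox6a2, Cox5b, Myh6, Tnni3, Atp5a1, Myl2 and Atp5b (0.85), against a median of 0.34. Over the 882 spots the highest were the mitochondrial creatine kinase gene Ckmt2 (0.81), Myl2 (0.81), Fabp3 (0.80), Slc25a4 (0.80) and Cox7a1 (0.80), with a median of 0.00 over the 1045 genes. In the control, over 1249 spots, Tnni3 led with 0.34, against a median of 0.04 over 1055 genes. Most of these genes encode proteins of the respiratory chain, energy transfer or the sarcomere.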

How the data were processed

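Spatial gene expression was measured by probe hybridization in 1 FFPE heart section of each genotype, grouped by the genotype label. The deposited matrices hold unnormalized UMI counts for every gene in every spot, which the authors made with Space Ranger 2.0.0 per the file headers. GRCm39, mm39 and bcl2fastq stand in the submitters' processing notes, and the probe set is not given in the sources used here. Moran's I is a score that the authors deposited per gene and section, and it was used as given. Deposited p-values and image scale factors were not used. The 725 barcodes that both sections share are positions of the array, not shared cells.

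CPM are a gene's UMIs in all spots over the UMIs of the whole section. A gene with 0 UMIs in a section was set to a floor of 3 counts. Intervals at 95% were exact Poisson for CPM, exact conditional binomial for ratios, Clopper-Pearson for shares and a normal approximation for differences between log2 ratios. They cover counting error only. With 1 section per group there was no test, and the Wilcoxon test over spots of the study's methods was not repeated. The ratio intervals were tried on simulated Poisson counts, which hold the counting error they assume and no differences between spots or mice. Spot descriptions used spots with at least 1000 UMIs. The text names all 9 members, 7 other cycle enzymes (1 listed gene is not reported here), the highest and lowest gene of each list, and the 10 genes most correlated over spots. The members and gene lists were chosen with earlier results of these data known. The limit of 2% cardiomyocyte markers, the erythroid-poor spots and the ordering by 6 markers were chosen after seeing the data, and so were genes set beside a member (Idh2, Mdh1, Suclg2) and the cardiomyocyte markers named. Python 3.11.15, numpy 2.4.6, scipy 1.17.1, pandas 2.3.3 and matplotlib 3.10.9 were used, with scaling factors from edgeR 4.0.16 and DESeq2 1.42.0 in R 4.3.3. Promoters came from RefSeq, GRCm38.p6. Of the listed marker and pathway genes, Mpc1, Vdac1, Actc1 and Hba-a1 were not analysed here.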

Additional observations from a re-analysis of the deposited data

How the results depend on the processing

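The 9 members were below 0 in log2 ratio in all 108 combinations of a member and an alternative (12 alternatives). Idh3a was lowest and Idh3b highest in each of the 12. The settings that only change the denominator could not alter this order, since they shift every gene alike. These are the TMM and DESeq2 factors, the totals without the 50 most abundant genes and the cardiomyocyte marker denominator. In the 50% of spots richest in cardiomyocyte markers Idh3b (−0.16) and Mdh2 (−0.19) were close. In the richest of the 4 groups of spots, which is not among the 12, Idh3b at −0.27 (−0.58 to 0.03) lay below Mdh2 at −0.03 (−0.08 to 0.02). Rescaling shifted every gene alike, by −0.16 with edgeR TMM factors and by −0.15 with DESeq2 size factors. The DESeq2 factors were 1 for both sections, so that setting compares UMIs without scaling to the section totals. The summed ratio of −0.74 came to −0.90 with TMM, −0.89 with DESeq2, −0.83 with totals that leave out the 50 most abundant genes, −0.46 in the 50% of spots richest in cardiomyocyte markers, −0.75 as a mean over spots, −0.63 per cardiomyocyte marker UMI and −0.72 in spots with at least 2% cardiomyocyte markers. The median of −0.81 came to −0.97, −0.96, −0.90, −0.54 and −0.71 under the same first 4 and the marker denominator. In the 50% of spots richest in the 6 cardiomyocyte markers not lower by 1.5-fold, the sum was −0.49, the median −0.57 and the range among members 0.77. That range was also 0.77 in spots rich in all 9 markers, instead of 1.02, and the transgenic share of Idh3a among the Idh3 subunits was 64.1% there instead of 63.1%. Between 4 and 8 members were lower by at least 1.5-fold. Of 32 recomputed shares, 27 stayed within their counting interval. No paired analysis was possible because each group held 1 section. Depth limits Idh3b most, with 1483 UMIs over both sections, and no alternative stands in for a replicate mouse.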
